A study of Mus musculus with 10 samples.

Results

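Acyl-CoA thioesterases, encoded by the Acot genes, were followed in liver RNA of aged mice on 2 diets. The family was taken as the 10 listed genes Acot1, Acot2, Acot3, Acot4, Acot7, Acot8, Acot9, Acot11, Acot12 and Acot13, matched by gene symbol, and all 10 were found among the 19414 genes of the expression table. The 10 livers came from female HET3 mice, a genetically heterogeneous stock in which each animal carries its own mix of inbred-strain alleles. Of these, 5 were fed a standard diet and 5 the Longevity diet for 5 months, and the series title describes the latter diet as methionine-supplemented. All were aged 25 months by the labels, which leave unclear if that is their age when feeding began or ended. Mice on both diets shared stock, sex and age, and the labels give no cage, batch or hour of collection, so p-values measure the spread between these animals as labelled. Mice are named by diet and number, with SD for the standard diet and LD for the Longevity diet.

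Acyl-CoA thioesterases split activated fatty acids (acyl-CoA) into free fatty acid and coenzyme A, the reverse of the step made by acyl-CoA synthetases. Type I enzymes, with an alpha/beta hydrolase fold, are encoded by a cluster of neighbouring genes in the mouse, and type II enzymes, with a hotdog fold, by genes scattered over the genome. Different members work in the cytosol, in mitochondria and in peroxisomes, and transcripts of several type I genes are known to increase when the fatty acid receptor PPAR-alpha is active, as in fasting.

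Levels are given as CPM, reads on a gene per 1000000 reads on all listed genes. The estimated depth per library, in units of 1000000 reads, was 36.0 to 45.7 on the standard diet and 24.7 to 39.1 on the Longevity diet. LD_405 stood apart on the first principal component of all tested genes (96.2, the other mice -43.9 to 38.2). On the second component LD_405 (36.5) lay among the standard diet mice other than SD_502 (18 to 41.9). SD_502 (-18.7) lay nearer to the other Longevity diet mice (-48.9 to -27.1). The 10 hepatocyte markers were present in all livers, with a summed level of 98826 to 147162 CPM on the standard diet and 145734 to 198227 on the Longevity diet, and 1 of them, Cps1, fell. Of the markers of other cell types 2 fell, Pdgfrb of stellate cells and S100a8 of neutrophils, and 0 rose. Summed markers of sinusoidal endothelial cells were 281 to 416 CPM and 127 to 263 CPM, those of stellate cells and fibroblasts 497 to 773 and 322 to 580 CPM, those of Kupffer cells and macrophages 514 to 867.7 and 272 to 899 CPM, and those of neutrophils 3.08 to 82.3 and 0.849 to 3.08 CPM. The neutrophil sum was high in SD_403 (75.5 CPM) and SD_646 (82.3 CPM), and 3.08 to 12.75 CPM in the other standard diet mice. SD_403 and SD_646 were also the 2 mice with the lowest Acot1 and Acot2 levels. Summed markers of lymphocytes were 17.9 to 47.7 and 2.81 to 36.0 CPM and those of cholangiocytes 40.3 to 67.8 and 33.1 to 56.4 CPM, while Cfd, the 1 adipocyte marker measured, stayed under 1 CPM in all livers. The part of these differences in the thioesterase results was not tested, and in bulk liver fewer cells of a type and less RNA per cell cannot be told apart.

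On the Longevity diet the liver held more mRNA of 2 of the 10 thioesterases, both of type I. Acot1, the cytosolic enzyme for long-chain acyl-CoA, and Acot2, its mitochondrial counterpart, rose, while 0 members fell and 8 were not called. A gene is said to have risen or fallen when limma's test on log2(CPM + 0.1) across 13157 genes gave a Benjamini-Hochberg adjusted p under 0.05. Of all genes tested 0.661% rose and 1.23% fell, 249 genes in all or 1.89%. Those 87 higher and 162 lower genes became 154 and 132 with median-of-ratios scaling and 151 and 148 with quantile normalization, which move the median of all genes from -0.11 to 0.00 on the log2 scale. The 2 members rose under both. The limma adjusted p under these 2 scalings was 0.0321 and 0.0499 for Acot1, the latter just under the threshold, and 0.00682 and 0.00807 for Acot2. An unadjusted p under 0.05 was found for 3 members and for 17.5% of all genes. The values of the diets were fully separate, with the Longevity diet above, for the same 2 members and for 2.01% of all genes (264 of them), beside 3.49% with the Longevity diet below and 5.5% in either direction. The median log2 difference was 0.30 over the 10 members and -0.11 over all genes. Without LD_405, the library that stands apart, the Acot2 log2 difference was 2.16 (adjusted p = 0.00832), and the Acot1 log2 difference was 3.59 but no longer passed (adjusted p = 0.0931).

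**Figure D1:**
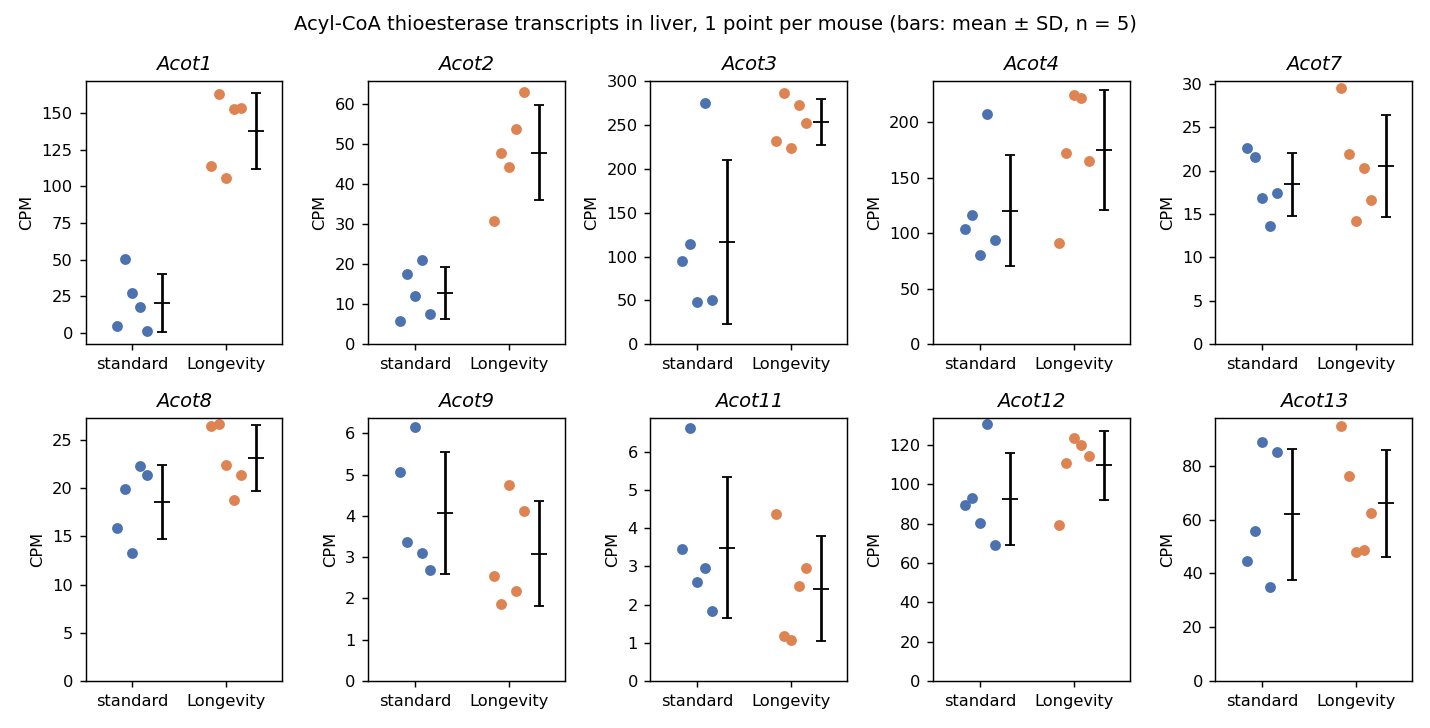
CPM of each thioesterase in every mouse, with 1 point per mouse, 5 mice per diet, and bars for the mean and SD; the vertical scale differs between panels. Acot1 and Acot2 are the panels in which all 5 Longevity diet points lie above all 5 standard diet points, and in the Acot3 panel 1 standard diet mouse, SD_502 at 276 CPM, lies among the Longevity diet mice.

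The type I genes lie together on chromosome 12 in the order Acot2, Acot1, Acot4, Acot3, within 72.5 kb from the start of Acot2 to the end of Acot3 (mm39). Their transcripts are close relatives. Over the aligned coding bases of the reference annotation, Acot1 and Acot2 were 95.2% identical, Acot1 and Acot3 83.9%, and Acot1 and Acot4 76.1%. Acot2 codes for 454 codons, stop included, against 420 in Acot1, and carries a mitochondrial targeting extension that the cytosolic enzyme lacks.

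Acot1 (ENSMUSG00000072949.7, chromosome 12 from 84056264 to 84065145, plus strand, mm39) differed most within the standard diet and most between the diets. On the standard diet it stood at 1.77 CPM in SD_646, 4.72 in SD_403, 17.9 in SD_502, 27.1 in SD_501 and 50.8 in SD_500. On the Longevity diet it stood at 106 CPM in LD_442, 114 in LD_405, 152 in LD_513, 153 in LD_515 and 163 in LD_406. The highest and lowest standard diet mice were thus 28.7-fold apart and the Longevity diet mice 1.54-fold, with no overlap between the diets. Means were 20.5 ± 19.8 and 138 ± 25.9 CPM (SD, n = 5 each). The log2 difference was 3.53 (SE 0.74, 95% CI 1.90 to 5.16, limma adjusted p = 0.0376). This is 11.5-fold as a ratio of geometric means and 6.73-fold as a ratio of arithmetic means, the low values of SD_646 and SD_403 weighing more in the former. The exact permutation p was 0.00794 (two-sided), the smallest this design can give. The limma call was lost in 9 of 19 alternatives, with the Acot1 log2 difference at 2.87 to 4.06 when single mice were left out. It was lost without SD_403 (adjusted p = 0.0893), SD_502 (0.0541), LD_405 (0.0931), LD_406 (0.0868), LD_442 (0.0619), LD_513 (0.088) and LD_515 (0.0721).

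Acot2 (ENSMUSG00000021226.8, chromosome 12 from 84034635 to 84040647, plus strand, mm39) encodes the thioesterase of the mitochondrial matrix. Its standard diet values were 5.88 CPM in SD_403, 7.66 in SD_646, 12.1 in SD_501, 17.6 in SD_500 and 21.2 in SD_502. Its Longevity diet values were 30.8 CPM in LD_405, 44.3 in LD_442, 47.8 in LD_406, 53.7 in LD_513 and 63.0 in LD_515. Every Longevity diet mouse thus lay above every standard diet mouse, and SD_403 and SD_646 were lowest as they were for Acot1. The mean went from 12.9 ± 6.47 to 47.9 ± 11.9 CPM (SD, n = 5 each), a log2 difference of 2.01 (SE 0.33, 95% CI 1.29 to 2.72, limma adjusted p = 0.0114, exact permutation p = 0.00794). The call held in all 19 alternatives tried for it, with adjusted p from 0.00216 to 0.0389.

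Reads of these relatives can be shared. In the reference transcripts, 21.9% of the 100-base windows of Acot1 and 17.1% of those of Acot2 occur letter for letter in another gene, mostly in each other. The reads of HET3 mice carry other alleles, and the read length is not given in the sources used here. The 2 genes summed went from 33.3 ± 24.4 to 186 ± 35.1 CPM (log2 difference 2.84, SE 0.47, limma adjusted p = 0.0111), a value that no division of reads between them can move.

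Acot3 (ENSMUSG00000021228.16, chromosome 12 from 84098918 to 84107176, plus strand, mm39), a peroxisomal type I enzyme for long-chain acyl-CoA, was not called. It stood at 48.6 CPM in SD_501, 50.6 in SD_646, 94.5 in SD_403, 115 in SD_500 and 276 in SD_502, and at 224 in LD_442, 232 in LD_405, 253 in LD_515, 273 in LD_513 and 287 in LD_406. Of the standard diet mice 4 lay below all Longevity diet mice, and SD_502 lay above 4 of the 5. Means were 117 ± 93.2 and 254 ± 26.7 CPM (SD, n = 5 each), with a log2 difference of 1.42 (SE 0.38, 95% CI 0.60 to 2.25, limma adjusted p = 0.0812, exact permutation p = 0.0397). Without SD_502 the Acot3 log2 difference was 1.81 and passed (adjusted p = 0.00616), and it also passed with median-of-ratios scaling (0.0465) and with weights per library (0.0233). SD_502 also differed from the other mice of its diet in mitochondrially encoded transcripts, 5.12% of its CPM against 10.5% to 11.4% in the others and 3.25% to 7.21% on the Longevity diet. Whether this bears on its Acot3 level was not tested. In the reference transcripts, 16.6% of the 100-base windows of Acot3 occur letter for letter in another gene, most often in Gm49366.

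Acot4 (ENSMUSG00000052392.6, chromosome 12 from 84085153 to 84095375, plus strand, mm39), a peroxisomal type I enzyme that prefers succinyl-CoA and other dicarboxylic acyl-CoA, was not called either. It stood at 80.4 CPM in SD_501, 93.8 in SD_646, 104 in SD_403, 117 in SD_500 and 207 in SD_502, and at 90.9 in LD_405, 165 in LD_515, 172 in LD_406, 222 in LD_513 and 224 in LD_442. The diets overlapped widely, since SD_502 lay above 3 Longevity diet mice and LD_405 below 4 standard diet mice. The Acot4 log2 difference was 0.55 (95% CI -0.07 to 1.18, limma adjusted p = 0.347), and it passed with weights per library (0.77, adjusted p = 0.0377). The long Acot4 transcript shares 539 of its 6104 windows of 100 bases with 4732463B04Rik, a long noncoding RNA on the opposite strand that overlaps most of Acot4 and the start of Acot3. That gene averaged 3.24 ± 1.39 and 4.23 ± 1.79 CPM (SD, n = 5 each). The labels do not say whether libraries kept the strand, so reads of Acot4 and this partner cannot be told apart where they overlap.

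**Figure D2:**
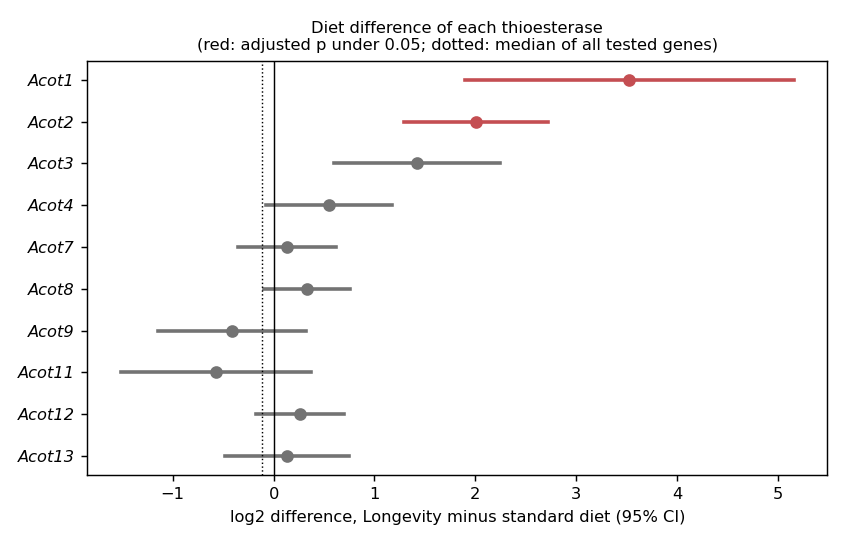
Difference between the diets for each thioesterase, as log2(CPM + 0.1) on the Longevity diet minus the standard diet, with 95% confidence intervals from the limma fit over 10 mice; the dotted line is the median of all tested genes, -0.11. The 2 genes in red passed the adjusted threshold; Acot3, at 1.42, has an interval above 0 but an adjusted p of 0.0812, and the 6 type II genes lie between -0.57 and 0.33.

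The neighbours did not change by equal amounts. The log2 ratio of 2 transcripts within each mouse was compared between the diets for the 6 pairs of Acot1 to Acot4 by an exact permutation test, with Benjamini-Hochberg adjustment over the 6 pairs. Acot1 relative to Acot4 went from -3.27 ± 1.89 to -0.30 ± 0.54 (SD, n = 5 each), with no overlap, exact p = 0.00794 and adjusted p = 0.0238. Acot2 relative to Acot4 went from -3.29 ± 0.59 to -1.83 ± 0.38, also with no overlap and with the same exact and adjusted p. Thus both Acot1 and Acot2 differed more between the diets than Acot4 did.

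The Acot1 to Acot2 ratio was 0.02 ± 1.42 on the standard diet and 1.54 ± 0.28 on the Longevity diet (difference 1.52, exact p = 0.0397, adjusted p = 0.0476). SD_500 (1.53) and SD_501 (1.16) stood near the Longevity diet mice (1.25 to 1.89), while SD_646 stood at -2.05. Acot1 relative to Acot3 differed by 2.11 and Acot3 relative to Acot4 by 0.87 (both exact p = 0.0317 and adjusted p = 0.0476). For Acot2 relative to Acot3 the difference was 0.58 and did not pass (exact p = 0.190, adjusted p = 0.190). With 1 mouse left out, Acot2 relative to Acot4 passed in all 10 cases (adjusted p up to 0.0476). Acot1 relative to Acot4 was lost without LD_405, LD_406, LD_513 or LD_515 (adjusted p up to 0.0952), Acot1 relative to Acot2 and to Acot3 without SD_403, SD_646 or any 1 of the Longevity diet mice, and Acot3 relative to Acot4 without SD_403, SD_501, SD_646, LD_405, LD_406, LD_513 or LD_515 (adjusted p up to 0.105 for each). Acot2 relative to Acot3 passed without SD_501 (difference 0.84, adjusted p = 0.0476).

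**Figure D3:**
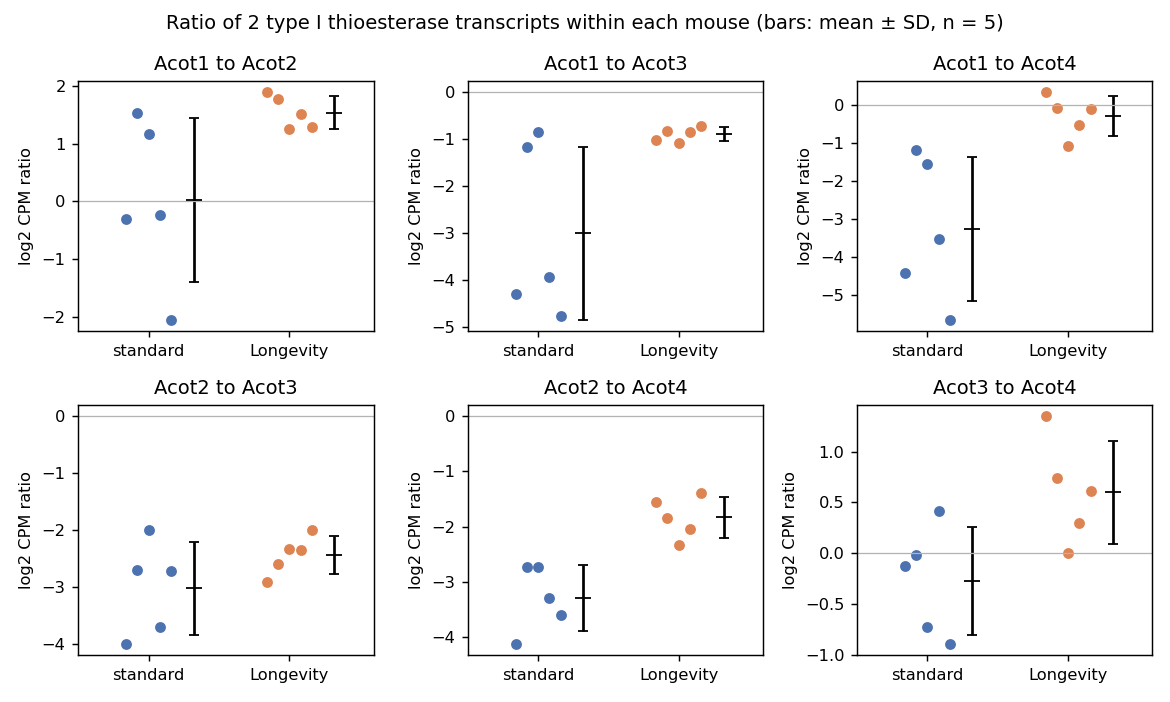
Log2 ratio of CPM (0.1 added) of 2 type I thioesterases within each mouse, 1 point per mouse and 5 mice per diet, with bars for the mean and SD. The panels for Acot1 to Acot4 and Acot2 to Acot4 show no overlap between the diets, and in the Acot1 panels the standard diet mice spread widely while the Longevity diet mice lie close together.

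The stretches before the 4 type I genes are shown because 2 of these related neighbours rose and 2 were not called. Each is the 250 bases before the RefSeq gene start on the plus strand of chromosome 12 (GRCm38.p6 reference, not the alleles of these mice), at chr12:84009252-84009501 for Acot1, chr12:83987611-83987860 for Acot2, chr12:84051894-84052143 for Acot3 and chr12:84038129-84038378 for Acot4. Capitals mark CCAAT on either strand, and in Acot4 the DR1 motif bound by PPAR-alpha with its partner RXR (AGGTCA repeated after 1 free base), searched on both strands with up to 2 mismatches.
Acot1: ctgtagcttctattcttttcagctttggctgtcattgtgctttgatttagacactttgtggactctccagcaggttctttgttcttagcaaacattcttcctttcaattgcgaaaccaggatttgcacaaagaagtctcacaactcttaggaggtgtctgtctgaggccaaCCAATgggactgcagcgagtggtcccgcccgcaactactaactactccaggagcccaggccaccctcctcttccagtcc
Acot2: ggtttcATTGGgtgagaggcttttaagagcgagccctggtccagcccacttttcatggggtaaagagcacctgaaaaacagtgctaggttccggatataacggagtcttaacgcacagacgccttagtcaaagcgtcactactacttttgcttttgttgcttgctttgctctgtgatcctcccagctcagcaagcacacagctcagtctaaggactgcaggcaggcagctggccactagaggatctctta
Acot3: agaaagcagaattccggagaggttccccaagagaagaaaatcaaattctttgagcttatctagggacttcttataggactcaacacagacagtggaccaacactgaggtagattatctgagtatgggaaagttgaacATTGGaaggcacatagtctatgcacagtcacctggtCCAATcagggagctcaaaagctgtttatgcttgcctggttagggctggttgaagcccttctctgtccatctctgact
Acot4: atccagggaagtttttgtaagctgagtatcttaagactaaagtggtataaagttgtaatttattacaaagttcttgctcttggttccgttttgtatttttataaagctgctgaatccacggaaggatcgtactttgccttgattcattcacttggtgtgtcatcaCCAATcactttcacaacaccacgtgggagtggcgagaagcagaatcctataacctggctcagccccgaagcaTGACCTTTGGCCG

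CCAAT occurred in all 4 of these, and in 37.4% of the 32851 RefSeq windows of 300 bases (250 before and 50 after each start). The repeat was matched in the Acot4 window with 2 mismatches, in the last 13 bases before the start, and it contains an exact AGGTCA on the minus strand. Among the members it was also matched in Acot12, with 1 mismatch, and it occurred in 3.86% of all windows. A single AGGTCA was in 16.3% of all windows and, among the members, in Acot3 (after the start), Acot4 and Acot12. The 300-base windows of Acot1 and Acot2 held neither the repeat at this tolerance nor AGGTCA, and those of Acot4 and Acot12 held both. These are descriptions of letters in short windows, and sites further away were not searched. Whether any of these letters bears on the diet differences was not tested. RefSeq windows were matched for 9 of the 10 members, Acot13 being the other.

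Acot1 had its closest company in fatty acid hydroxylases. Likeness was measured as the root mean square distance between log2(CPM + 0.1) levels centred on each gene's mean over the 10 mice, among 11807 named genes outside the family (median distance 2.23 from Acot1). The 3 nearest genes were Cyp4a14 (0.66), Cyp4a10 (0.72) and Cyp4a31 (1.04), which encode omega-hydroxylases of fatty acids and whose reads can also be shared among close copies. Acot2 stood at 1.19 from Acot1. Cyp4a14 was at 9.15 CPM in SD_646, 27.1 in SD_403, 74.2 in SD_502, 256 in SD_501 and 487 in SD_500, the same order of standard diet mice as Acot1. The 3 genes were picked for their closeness over these same 10 mice, both diets included. Neither a shared order nor a diet difference of theirs is therefore a separate result. On the Longevity diet Cyp4a14 ranged from 936 CPM in LD_405 to 2326 in LD_515 and rose (log2 difference 4.51, limma adjusted p = 0.0446, lost in 9 of 19 alternatives). The order of Longevity diet mice differed, LD_442 being lowest and LD_406 highest for Acot1. For Cyp4a10 SD_646 was again lowest at 13.6 CPM, the next lowest being SD_403 at 125 and the highest SD_500 at 469. Its Longevity diet range was 463 to 1481 CPM (log2 difference 2.81, adjusted p = 0.1), so it overlapped and was not called.

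Acot2 had other neighbours in pattern. Nearest were Adgrg2 (0.37), which encodes an adhesion G protein-coupled receptor, Impa2 (0.39), an inositol monophosphatase, and Mrgpre (0.41), an orphan receptor gene, against a median distance of 1.25. Adgrg2 went from 1.84 ± 0.97 to 6.75 ± 2.37 CPM (limma adjusted p = 0.0275, lost in 9 of 18 alternatives) and Impa2 from 3.20 ± 1.79 to 9.81 ± 1.08 CPM (adjusted p = 0.0178). Mrgpre was at 1.25 ± 1.00 and 3.47 ± 0.80 CPM (SD, n = 5 each, limma adjusted p = 0.107). These genes too were picked for closeness over the mice of both diets, so their diet differences are no separate result. Acot3 was the family member nearest to Acot2, at 0.63.

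**Figure D4:**
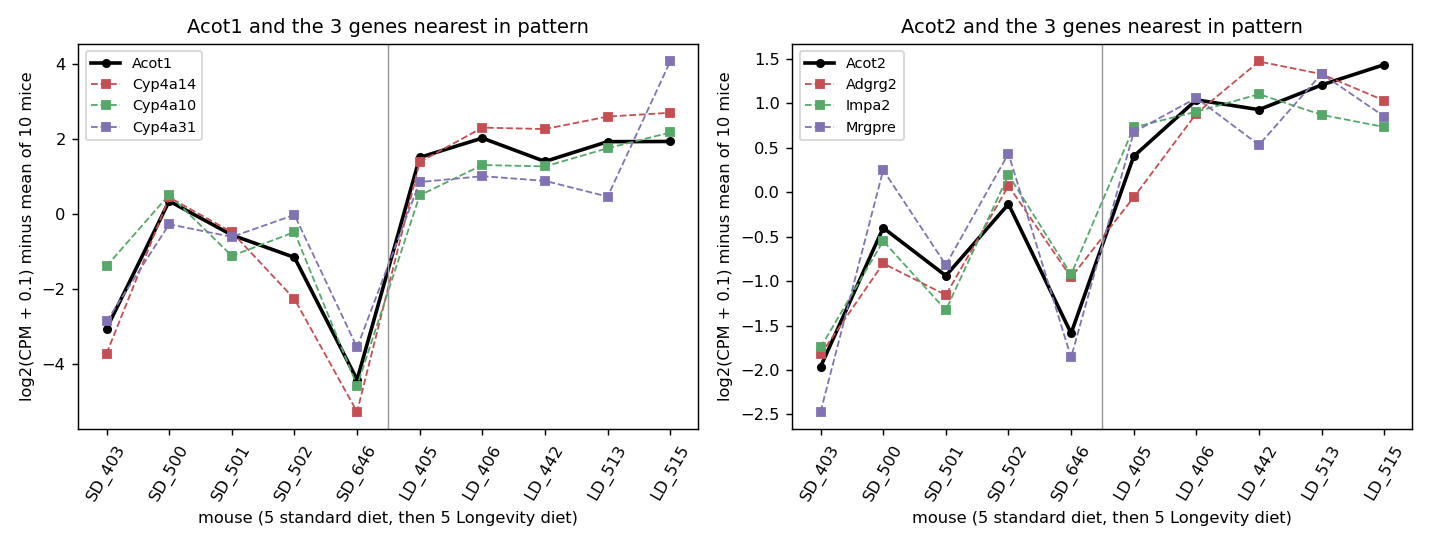
Levels of Acot1 (left) and Acot2 (right) with the 3 genes nearest to each, as log2(CPM + 0.1) minus the mean over the 10 mice, for 5 standard diet and then 5 Longevity diet mice in order of number. Acot1, Cyp4a14 and Cyp4a10 share a low point in SD_646, and Cyp4a31 stands apart in LD_515, at 116 CPM against 9.47 to 13.9 in the other Longevity diet mice.

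None of the 6 type II members was called by limma (0 of 6, adjusted p 0.405 to 0.835), beside 1.89% of all genes. A count of 0 among 6 is near that share and does not set type II apart from other genes. Each of the 6 unadjusted limma p was 0.116 or more. Acot8 (chromosome 2 from 164634685 to 164646802), the broad-range peroxisomal enzyme, ranged from 13.3 to 22.3 CPM on the standard diet (median 19.9) and from 18.8 to 26.7 on the Longevity diet (median 22.4). Of the Longevity diet mice 3 lay above all standard diet mice, and the log2 difference was 0.33 (95% CI -0.09 to 0.76, adjusted p = 0.405). Its 3′ neighbour Snx21 overlaps it and shares 13.8% of its 100-base windows.

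Acot12 (chromosome 13 from 91889631 to 91934267), a liver enzyme that hydrolyses acetyl-CoA in the cytosol, stood at 69.0 to 131 CPM on the standard diet (median 89.3) and 79.4 to 124 on the Longevity diet (median 114). Its log2 difference was 0.26 (95% CI -0.17 to 0.69, adjusted p = 0.523). LD_405, at 79.4 CPM, lay below the 111 to 124 CPM of the other Longevity diet mice.

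Acot13 (chromosome 13 from 25001931 to 25015523), a small mitochondria-associated enzyme also called Them2, had 35.0 to 89.0 CPM on the standard diet and 48.1 to 94.96 on the Longevity diet. The log2 difference of 0.14 (95% CI -0.48 to 0.75, adjusted p = 0.835) is compatible with anything from 0.718 to 1.68 times the standard diet level. Acot7 (chromosome 4 from 152262591 to 152356312), a cytosolic enzyme best known from brain, had 13.6 to 22.6 CPM and 14.2 to 29.5 CPM, with a log2 difference of 0.13 (95% CI -0.36 to 0.62, adjusted p = 0.791). The sign turned negative without LD_405 for both Acot7 (-0.01) and Acot13 (-0.01), and also with weights per library (-0.10 and -0.02), as it did for Acot13 without SD_502 (-0.05).

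Acot9 (X chromosome from 154045439 to 154080650), a mitochondrial enzyme, and Acot11 (chromosome 4 from 106601752 to 106662195), a long-chain enzyme known from brown fat, were the 2 members with a negative difference. Acot9 had 2.68 to 6.16 CPM on the standard diet and 1.86 to 4.75 on the Longevity diet (log2 difference -0.41, 95% CI -1.14 to 0.32, adjusted p = 0.556). Acot11 had 1.84 to 6.62 CPM and 1.06 to 4.38 CPM (log2 difference -0.57, 95% CI -1.51 to 0.37, adjusted p = 0.523). Both were low in every liver, and for both the diets overlapped over most of their range. Of the 100-base windows of Acot11, 15.6% occur also in Fam151a.

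Per length of transcript the family spanned more than the diets did. Divided by the length of the longest coding transcript, mean levels on the standard diet were highest for Acot13 (85.9 ± 33.6 CPM per kb), then Acot3 (34.1 ± 27.2), Acot12 (30.3 ± 7.63), Acot4 (19.4 ± 8.10), Acot8 (16.1 ± 3.32), Acot7 (12.2 ± 2.45), Acot1 (9.00 ± 8.72), Acot2 (5.86 ± 2.95), Acot9 (2.33 ± 0.84) and Acot11 (0.61 ± 0.32, SD, n = 5 mice for each). Along this order the ranges of neighbouring genes overlapped down to Acot2, and those of Acot2 and Acot9 overlapped as well, whereas the range of Acot9 lay wholly above that of Acot11. On the Longevity diet Acot1 was the third in order, at 60.6 ± 11.4 CPM per kb, its range overlapping that of Acot3, the second in order, with all 5 mice above the 35.9 ± 5.77 of Acot12 (25.97 to 40.5). Acot2 was the sixth, at 21.8 ± 5.43. The order uses reference lengths. With all annotated exons merged instead, Acot1 and Acot2 exchanged places on the standard diet and the Longevity diet order was as given.

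**Figure D5:**
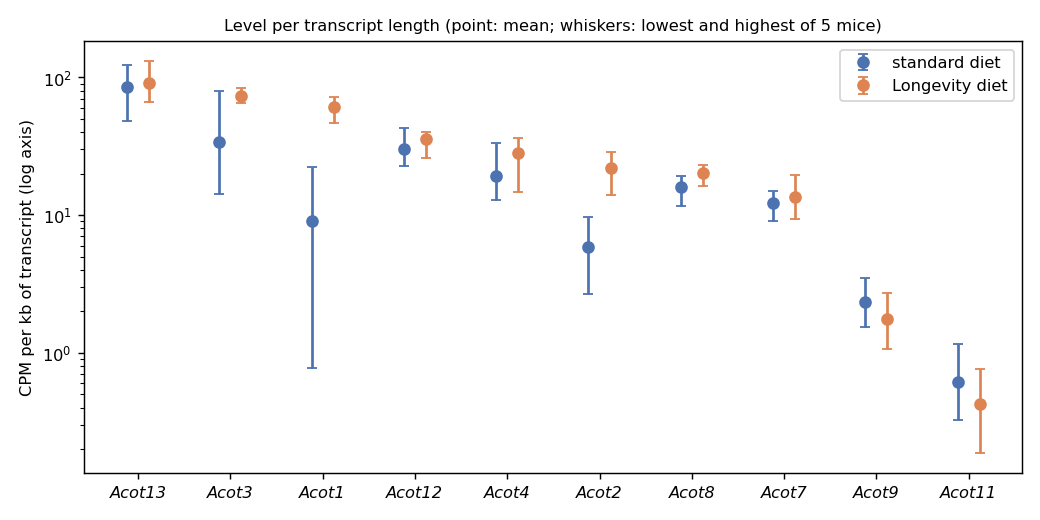
Level of each thioesterase per kb of transcript on a log axis, ordered by the Longevity diet mean, with points for means and whiskers for the lowest and highest of 5 mice. Acot13 leads on both diets, and Acot1 and Acot2 are the 2 genes whose whiskers do not overlap between the diets.

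Some members ranked the mice of a diet alike and others did not. Among standard diet mice SD_502 was highest for 5 members (Acot2, Acot3, Acot4, Acot8 and Acot12) and lowest for 2 (Acot7 and Acot13). Acot3 and Acot4 placed the 5 standard diet mice in the same order, from SD_501 through SD_646, SD_403 and SD_500 to SD_502. On the Longevity diet their orders differed, LD_442 being lowest for Acot3 and highest for Acot4. Among Longevity diet mice LD_405 was lowest for Acot2, Acot4 and Acot12 and highest for Acot7, Acot11 and Acot13. LD_442 was the reverse for 5 of these 6, highest for Acot4 and Acot12 and lowest for Acot7, Acot11 and Acot13. These ranks are a description of single livers.

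Other thioesterases, from lists chosen with earlier results of these data known, were not called. Acot6 (chromosome 12 from 84147428 to 84158123), the next type I gene beyond Acot3, averaged 2.71 ± 0.99 and 4.09 ± 1.12 CPM (log2 difference 0.60, limma adjusted p = 0.343). Baat, a type I relative that conjugates bile acids, was at 169 ± 14.7 and 147 ± 4.503 CPM (log2 difference -0.20, adjusted p = 0.487). Them4, a type II relative, was at 13.0 ± 3.44 and 17.9 ± 3.76 CPM (adjusted p = 0.299). Acot10 was under the filter, at 0 to 0.278 CPM in all mice. Of 12 tested genes of other thioesterases and acyl-CoA hydrolases 0 were called, beside 1.89% of all genes. The smallest p was that of Nudt19, which encodes a peroxisomal hydrolase of coenzyme A and its esters (40.9 ± 7.93 and 70.6 ± 17.2 CPM, SD, n = 5 each). All Longevity diet mice lay above all standard diet mice for Nudt19 (exact permutation p = 0.00794, limma adjusted p = 0.0718), and the Nudt19 log2 difference of 0.78 passed with median-of-ratios scaling (adjusted p = 0.0414) and with weights per library (0.016). With weights 1 gene of this list was also called lower. Acot5 was not found by symbol in the expression table, so it has no level here.

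Genes that make, bind and burn acyl-CoA give the setting. Of 139 tested genes outside the family on all the pathway lists, 12 rose and 0 fell, beside 0.661% and 1.23% of all genes, and their median log2 difference was 0.34. The lists were chosen with earlier results of these data known, so the comparison is a description only. Over the 19 alternatives 4 to 23 of these genes rose and 0 to 2 fell. Among acyl-CoA synthetases and transporters, which make the substrate of thioesterases, 0 of 16 were called (median 0.21), and Aacs, a cytosolic synthetase for acetoacetate, had the smallest p (29.4 ± 14.0 and 54.8 ± 10.96 CPM, limma adjusted p = 0.143). Genes of coenzyme A synthesis and breakdown had 0 of 16 called (median 0.20), with Ppcs, a synthetase of the pathway, at 23.4 ± 2.72 and 39.1 ± 9.14 CPM (adjusted p = 0.0855). Acyl-CoA and fatty acid binding genes had 0 of 11 called (median 0.15), with Fabp1, the liver fatty acid binding protein, at 1330 ± 323 and 3239 ± 1831 CPM (adjusted p = 0.0736).

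Genes of fatty acid oxidation and of the PPAR-alpha pathway included all 12 called genes. Of 22 genes listed under mitochondrial import and beta-oxidation 4 rose and 0 fell (median log2 difference 0.54). That count was 0 with the leading digit of the mouse number as a covariate, 1 without the trend and robust options, 7 with median-of-ratios scaling and 8 with weights per library. It was 1 without SD_403, SD_501, SD_646, LD_406 or LD_515, 2 without SD_500 or LD_442, and 6 without SD_502 or LD_405. No other mouse shares the leading digit of SD_646, so the covariate also takes SD_646 out of the comparison of diets. Eci2, an enoyl-CoA isomerase, rose from 163 ± 41.2 to 342 ± 28.7 CPM (limma adjusted p = 0.0114), and Decr1, a dienoyl-CoA reductase, from 115 ± 18.1 to 197 ± 16.04 CPM (adjusted p = 0.0262). Of 19 genes listed under peroxisomal import and oxidation 3 rose and 0 fell (median 0.41). The list follows the pathway, and the place of each enzyme in the cell was not measured. Among the 3 were Mlycd, malonyl-CoA decarboxylase, from 88.6 ± 8.21 to 157 ± 30.3 CPM (limma adjusted p = 0.0314), and Crat, carnitine acetyltransferase, from 55.1 ± 28.4 to 133 ± 7.35 CPM (adjusted p = 0.0341). The count for this list was 0 with that covariate, 1 without the trend and robust options, 1 without SD_403, SD_500, SD_501, SD_646, LD_406 or LD_515, and 2 without LD_442 or LD_513. Other settings or a left-out mouse ended the call of Decr1, Mlycd and Crat in 7, 8 and 10 of 19 alternatives. Of 24 tested PPAR-alpha targets outside the family 5 rose and 0 fell (median 0.89), namely Cyp4a14, Fgf21, Pex11a, Plin5 and Ucp2, some of which also stand on other lists. This count was 3 with the covariate and without LD_515, and 8 with weights. Of 22 receptors and cofactors around PPAR-alpha 1 rose (Lpin1, from 42.1 ± 15.2 to 140 ± 31.96 CPM, adjusted p = 0.0036) and 0 fell (median 0.24).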

How the data were processed

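Liver RNA of 10 mice was sequenced after poly-A selection, per the labels' protocols. The authors deposited CPM with 0.0001 added, which was subtracted; STAR, Partek and mm39 are named per the submitters' processing notes, and the quantifier is not given in the sources used here. The steps of low values gave the depth. By library, 84.5% to 88.0% of the values below 100 reads were whole to within 0.1, and 674 of 194140 values lay above 0 and under 0.5 read, so no count test was used. For genes averaging 1 CPM or more, log2(CPM + 0.1) was fitted on diet alone in limma 3.58.1 (R 4.3.3, statmod 1.5.0), with its trend and robust options. The script was also run on simulated data with errors drawn independently for each gene and mouse. Effects shared by a whole library were not simulated, and the outcome is not given here. Single values used exact two-sided permutation tests. Transcripts came from GENCODE M21 (GRCm38); gene positions are those of the table (mm39), with ends 1 below its stop, as all 15 mitochondrial genes compared showed.

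The members, lists and tests were chosen with earlier results of these data known. Named outside the family were up to 3 called genes per list by smallest p (or the 1 smallest), and the 3 genes nearest in pattern to each called member; others, such as Baat, Acot10, Cps1 and the overlapping neighbours, were named for their relation to the members after values were seen. Alternatives were other pseudocounts, filters, scalings, weights per library, a covariate, summed neighbours and leaving out each mouse.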

Additional observations from a re-analysis of the deposited data

Results flagged for a closer look

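Acot12 in LD_405 stood at 79.4 CPM, away from the other 4 Longevity diet mice at 111 to 124 CPM. Its gap to the nearest of them was 0.753 of the range of that diet on the log2 scale, above the 0.71 used as the limit for 5 samples. It was the 1 such case among 20 groups examined (10 members on 2 diets), and chance gives about 1 in 20. LD_405 also stood apart on the first principal component of all genes (96.2).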

How the results depend on the processing

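Acot2 kept its direction and its call in all 19 alternatives tried for it, and 0 members were called lower in any of 19. With weights per library, 805 genes were called (329 higher, 476 lower), among them 23 higher and 2 lower of the pathway genes outside the family; with the leading digit of the mouse number as a covariate 98 were called (28 higher, 70 lower; 4 pathway genes higher). Higher genes numbered 154 with median-of-ratios scaling and 151 with quantile normalization, and limma without trend and robust called 7 pathway genes higher. Members called higher were 1 with no filter on low values and 3 with median-of-ratios scaling or weights. The Acot1 log2 difference was 3.53 with no filter (adjusted p = 0.0869) and 2.94 with weights (0.0983), neither passing. The Acot3 log2 difference passed at 1.53 (median-of-ratios scaling) and 1.40 (weights), and the Acot4 log2 difference at 0.77 (weights). The sum of Acot1, Acot2, Acot3, Acot4 and Acot6 holds the called Acot1 and Acot2, so it is no value of Acot3 or Acot4. That sum differed by 1.32 on the log2 scale (limma adjusted p = 0.0372). With weights the signs of Acot7 (-0.0999) and Acot13 (-0.0170) turned; the cause of these changes was not tested. Leaving out each mouse in turn gave 87 to 380 called genes (26 to 152 higher, 57 to 228 lower; all of the highest without LD_405), 1 to 2 members higher and 5 to 16 pathway genes higher. It gave log2 differences of 2.87 to 4.06 for Acot1, 1.19 to 1.81 for Acot3, -0.0089 to 0.25 for Acot7 (negative without LD_405) and -0.0466 to 0.29 for Acot13 (negative without SD_502, with the Acot13 log2 difference at -0.0068 without LD_405). For the ratios it gave 1.00 to 1.90 (Acot1 to Acot2), 1.67 to 2.65 (Acot1 to Acot3), 2.38 to 3.50 (Acot1 to Acot4), 0.34 to 0.84 (Acot2 to Acot3) and 0.68 to 1.04 (Acot3 to Acot4), with 126 assignments of 9 mice limiting the exact p. No paired analysis was possible because no mouse number occurs on both diets. Depth sets a floor of 0.0657 to 0.121 CPM for 3 reads, under the lowest value of every member, and covers counting error only.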
